A study of Mus musculus with 18 samples.

Results

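The GABA-A receptor subunit genes Gabra2, Gabra3, Gabra4, Gabra5, Gabrb1, Gabrb2 and Gabrg3 were followed across the cell types of the mouse hippocampus (Hip) and prefrontal cortex (PFC). They were taken by their symbols and are 7 of the 30905 genes in the count tables, each listed in all 18 libraries. Single-nucleus RNA-seq had been done on Hip and PFC of 9 Kun Ming mice, 3 per group, all 8 weeks old, and each mouse gave 1 library of each region. Germ-free (GF) mice (numbers 5, 6 and 7) were kept without microbes. Specific pathogen-free (SPF) mice (30, 31 and 32) carried a gut flora and were reared in other surroundings than GF and CGF mice. Colonized germ-free (CGF) mice (17, 18 and 19) were born germ-free and later shared an isolator with SPF mice. No transgene, deletion or drug is named for any group, and the labels do not give the sex of the mice. GF and SPF mice differed in flora and in housing.

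The GABA-A receptor is a pentameric chloride channel that opens when GABA, the main inhibitory transmitter of the adult brain, binds between an alpha and a beta subunit. Most receptors hold alpha, beta and gamma or delta subunits. The alpha subunit sets much of the channel's kinetics and its response to benzodiazepines, with alpha4 receptors being insensitive to the classical ones. Receptors with alpha2 are enriched at synapses, including those on the axon initial segment, whereas alpha4 and alpha5 receptors lie largely outside synapses and carry tonic current. The beta subunits hold the GABA site together with alpha and link the receptor to trafficking proteins, and gamma3 is one of the less common gamma subunits. Astrocytes and oligodendrocyte precursors (OPC) are also known to respond to GABA.

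Positions are given on GRCm38, the build of the counts. On chromosome 5, Gabra2 spans chr5:70957597-71095849 on the minus strand, Gabra4 spans chr5:71569749-71658308 on the minus strand, and Gabrb1 spans chr5:71658113-72149037 on the plus strand. Gabra4 and Gabrb1 overlap head to head at their ends. On chromosome 7, Gabrg3 spans chr7:56716465-57387188 and Gabra5 spans chr7:57407672-57510059, both on the minus strand, and Gabra5 overlaps the antisense gene Gm9962 on the other strand. Gabrb2 lies at chr11:42419757-42629028 on the plus strand. Gabra3 lies at chrX:72432681-72656848 on the minus strand. Whether counting used the strand is not given in the sources used here, so reads of Gabra4, Gabrb1 and Gabra5 cannot be fully separated from those of the genes they overlap. All were long genes, with spans from 88.6 kb for Gabra4 to 670.7 kb for Gabrg3.

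Gabra2 and Gabrb2 were the members with the most calls above SPF in the PFC of GF mice, so the 250 bases before their first RefSeq start (GRCm38.p6) are shown. Capitals mark the GC box GGGCGG on either strand, a motif found in the same window of 32.7% of 32851 promoters of the RefSeq table. Gabra2 lies at chr5:71095850-71096099 (minus strand, 70.0% GC) and Gabrb2 at chr11:42420190-42420439 (plus strand, 58.8% GC, inside the longer span given above).
Gabra2: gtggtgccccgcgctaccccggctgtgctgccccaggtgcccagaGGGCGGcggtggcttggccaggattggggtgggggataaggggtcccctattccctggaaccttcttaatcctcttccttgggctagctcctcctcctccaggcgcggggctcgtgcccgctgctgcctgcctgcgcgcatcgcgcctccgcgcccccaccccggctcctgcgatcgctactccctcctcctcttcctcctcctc
Gabrb2: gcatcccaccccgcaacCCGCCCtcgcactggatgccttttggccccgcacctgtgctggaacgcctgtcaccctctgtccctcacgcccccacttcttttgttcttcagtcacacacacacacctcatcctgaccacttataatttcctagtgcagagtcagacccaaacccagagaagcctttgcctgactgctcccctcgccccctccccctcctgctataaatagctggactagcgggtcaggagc
Each window held 1 GC box, and neither held the half-site TGACG of the cAMP response element (in 17.8% of promoters) nor the EGR core GCGTGGG (in 4.3%).

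The files held 72226 barcodes of Hip and 67698 of PFC, and 71398 and 66602 nuclei passed the filter of at least 200 genes and at most 10% mitochondrial UMIs (unique molecular identifiers, 1 per captured molecule). Cell types were named from clusters made without any GABA-A subunit gene, and 11 types in Hip and 15 in PFC had at least 20 nuclei in each library, in all 45111 and 42179 nuclei. Depth differed with group in PFC, where the GF libraries held 59126586 to 71463928 UMIs and the SPF and CGF libraries 20336250 to 26949210. The 9 Hip libraries held 49067853 to 63217083. Mitochondrial UMIs were 0.359 to 0.594% in the PFC of GF mice and 1.28 to 3.22% in that of SPF and CGF mice, whereas in Hip they were 0.645 to 1.10% in GF and 0.0770 to 0.471% in the others. The labels give no batch, and depth in PFC and mitochondrial share in both regions moved with the GF group, so these cannot be told apart from the group. Any pair of libraries shared at most 29 barcodes (0.355%).

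Levels are given as CPM, a gene's UMIs in a cell type of a library per 1000000 UMIs of that type in that library, as mean ± SD over the 9 libraries of a region unless a group is named. CPM was not divided by gene length, so levels are compared between types within a gene, not between genes. It is a share of a type's UMIs and gives no count per nucleus or per type. The order of types, by mean log2(CPM + 1), was set on the same libraries, and neighbours in the order were compared by an exact two-sided sign-flip permutation test paired by library (smallest possible p = 0.00391), with 24 of 70 neighbouring pairs differing in Hip and 16 of 98 in PFC. The PFC count was 0 without any one of GF mice 5, 6 and 7, SPF mice 30, 31 and 32 and CGF mouse 18. With 8 libraries, adjustment over 98 pairs leaves no call unless many pairs reach the smallest possible p together, so a count of 0 is no measure of how far the levels depend on those mice.

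Gabra2, the alpha2 subunit, was highest in hippocampal principal neurons and in astrocytes. In Hip it reached 627 ± 96.0 CPM in dentate granule neurons, 625 ± 104 CPM in CA1 pyramidal neurons, 582 ± 137 CPM in astrocytes and 525 ± 116 CPM in CA3 pyramidal neurons. Neighbours among these did not pass the test, and the drop from CA3 to Sst interneurons (259 ± 87.0 CPM) did (higher in CA3 in 9 of 9 libraries, mean log2 difference 1.05, exact adjusted p = 0.0161). The highest Sst values came from GF mouse 6 (324 CPM) and SPF mouse 32 (445 CPM), whose libraries held the most Sst nuclei (503 and 312). In PFC the order was astrocytes (297 ± 97.8 CPM), upper-layer Cux2 neurons (255 ± 46.3 CPM) and layer 5 Fezf2 neurons (197 ± 50.2 CPM). The first step did not pass (higher in astrocytes in 5 of 9 libraries, exact adjusted p = 0.461), and in CGF mice the means stood the other way, at 225 CPM in astrocytes and 230 CPM in upper-layer neurons. The step from upper-layer to layer 5 neurons and that from layer 5 to Vip interneurons (132 ± 40.0 CPM) each held in 9 of 9 libraries (exact adjusted p = 0.0273). Pvalb interneurons had the lowest mean over the 9 libraries in both regions, 114 ± 30.8 CPM and 46.1 ± 8.19 CPM.

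Gabra3, alpha3, was led in Hip by interneurons and OPC. It was at 105 ± 21.6 CPM in Sst interneurons, 82.2 ± 24.1 CPM in OPC, 81.7 ± 15.8 CPM in Pvalb and 77.6 ± 13.2 CPM in Vip interneurons. CA1 neurons held 35.9 ± 4.44 CPM, while dentate granule (5.12 ± 1.39 CPM) and CA3 neurons (4.41 ± 2.01 CPM) stood at the bottom of the order, below astrocytes (11.9 ± 4.35 CPM). Vip exceeded CA1 in 9 of 9 libraries by 1.08 on the log2 scale (exact adjusted p = 0.0161). In PFC the 5 excitatory types carried it too, from 66.7 ± 18.2 CPM in layer 6b to 114 ± 10.6 CPM in near-projecting Tshz2 neurons. No neighbouring pair of Gabra3 in PFC differed by the test.

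Gabra4, alpha4, peaked in dentate granule neurons at 264 ± 27.2 CPM, above CA3 neurons (132 ± 26.9 CPM) in 9 of 9 libraries (mean log2 difference 1.01, exact adjusted p = 0.0161). CA3, CA1 (131 ± 23.9 CPM), Pvalb (119 ± 22.7 CPM) and astrocytes (114 ± 19.1 CPM) followed without a passing step between them. In PFC, upper-layer Cux2 neurons led with 179 ± 17.3 CPM, above Lamp5 interneurons (139 ± 25.6 CPM) in 9 of 9 libraries (exact adjusted p = 0.0273). Layer 6b neurons were low, with 43.2 ± 6.93 CPM.

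Gabra5, alpha5, was highest in principal neurons of Hip and in deep cortical neurons. CA3 held 239 ± 44.2 CPM, CA1 179 ± 20.3 CPM and dentate granule neurons 159 ± 12.5 CPM, and CA3 was above CA1 in 9 of 9 libraries (exact adjusted p = 0.0161). The 3 hippocampal interneuron types stayed between 25.7 ± 7.62 CPM in Pvalb and 37.5 ± 8.68 CPM in Sst. Hip microglia held more Gabra5 than these means, 43.1 to 93.8 CPM. How much of the interneuron level came from other cells was not tested. In PFC, layer 6b neurons (156 ± 20.9 CPM) exceeded layer 5 neurons (109 ± 16.5 CPM) in 9 of 9 libraries (exact adjusted p = 0.0273), and upper-layer neurons held 20.2 ± 3.82 CPM.

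Gabrb1, beta1, had its highest CPM in astrocytes in both regions, and neurons held it too. Astrocytes held 3826 ± 619 CPM in Hip and 2000.5 ± 694 CPM in PFC, and they exceeded the next type, dentate granule neurons (1724 ± 225 CPM) and near-projecting neurons (1244 ± 266 CPM), in 9 of 9 libraries each (exact adjusted p = 0.0161 and 0.0273). Among hippocampal principal neurons the levels fell from dentate granule neurons to CA3 (1453 ± 263 CPM) and CA1 (1285 ± 132 CPM), and both steps passed (exact adjusted p = 0.0161 and 0.0357). Oligodendrocytes had the lowest mean over the 9 libraries, with 249.4 ± 124 CPM in Hip and 245 ± 105 CPM in PFC.

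Gabrb2, beta2, was in turn low in astrocytes, at 53.6 ± 26.3 CPM in Hip and 35 ± 12.2 CPM in PFC. Hippocampal Pvalb interneurons were highest (725 ± 117 CPM), above dentate granule neurons (523 ± 98.1 CPM) in 9 of 9 libraries (exact adjusted p = 0.0161). In PFC, Lamp5 interneurons held 626 ± 266 CPM, with a range from 191 to 1053 CPM. The lowest of these values came from CGF mouse 17, whose PFC library gave 502 Lamp5 nuclei against 83 to 124 in the other 8. Pvalb, layer 6b, layer 5, layer 6 corticothalamic, Vip and upper-layer types lay close together, from 379.8 ± 113 CPM to 331 ± 87.8 CPM, with no passing step.

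Gabrg3, gamma3, was highest in Pvalb interneurons of Hip, with 3402 ± 609.8 CPM, followed by Vip (1418 ± 229.7 CPM) and Sst interneurons (967 ± 283 CPM). Pvalb exceeded Vip in 9 of 9 libraries by 1.26 on the log2 scale (exact adjusted p = 0.0161). CA1 neurons held 519 ± 70.5 CPM, and CA3 neurons 63.4 ± 29.6 CPM. In PFC the leading types were Lamp5 (2279.6 ± 561 CPM), Pvalb (2223 ± 226 CPM) and near-projecting neurons (1768 ± 373 CPM), which did not differ by the neighbour test, and OPC carried 681 ± 222 CPM in Hip and 724 ± 114 CPM in PFC.

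**Figure D1:**
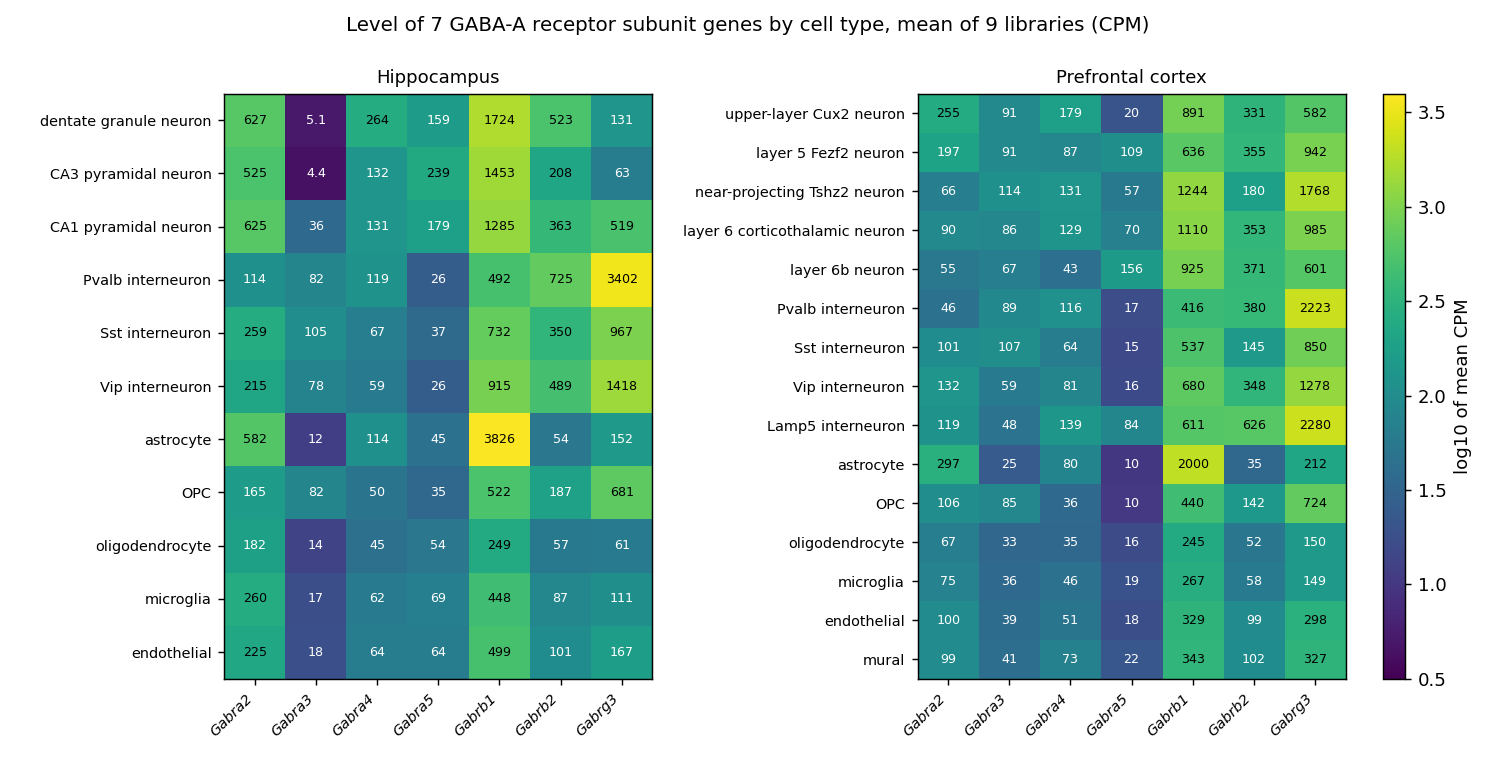
Mean level (CPM) of each of the 7 genes (columns) in each cell type (rows), over the 9 Hip libraries (left) and the 9 PFC libraries (right), with colour on a log10 scale. Within a column, Gabrb1 is brightest in astrocytes, Gabrg3 in Pvalb and Lamp5 interneurons, and Gabra3 is darkest in dentate granule and CA3 neurons.

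Nuclei named as glia also held UMIs of neuronal genes, which were read from 8 genes here called neuron-wide (Syt1, Snap25, Rbfox3, Grin1, Grin2a, Nrgn, Camk2a and Slc17a7). Their level in Hip astrocytes was 19 to 33.2% of that in the neurons of the same library, and in PFC astrocytes 23.3 to 35.1%. In microglia it was 31.1 to 48.9% in Hip and 35.3 to 52.8% in PFC. Each member's glial level was set against this share, where a ratio of about 1 is what neuronal UMIs alone would give for a gene spread over neurons as these are. Grin2a, Camk2a and Slc17a7 also served as markers of excitatory neurons, so a gene led by interneurons need not follow this share. Free RNA and barcodes that hold more than 1 nucleus were not told apart as their source.

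Gabrb1 stood far above it in astrocytes, with a median ratio of 10.5 in Hip (6.43 to 14.6) and 7.61 in PFC (5.59 to 13.8). Gabra2 in astrocytes gave 4.21 in Hip and 5.40 in PFC, and Gabra4 gave 2.87 and 2.01, each above 1 in 9 of 9 libraries. In OPC, Gabra3 gave 8.76 in Hip and 3.25 in PFC and Gabrg3 4.15 and 2.85, again in 9 of 9 libraries. In oligodendrocytes and microglia, by contrast, Gabrb2 and Gabrg3 were below 1 in 9 of 9 libraries of both regions, with medians from 0.38 to 0.58. Levels there cannot be told apart from background, and differences between groups in those 2 types are differences in a signal of that size.

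**Figure D2:**
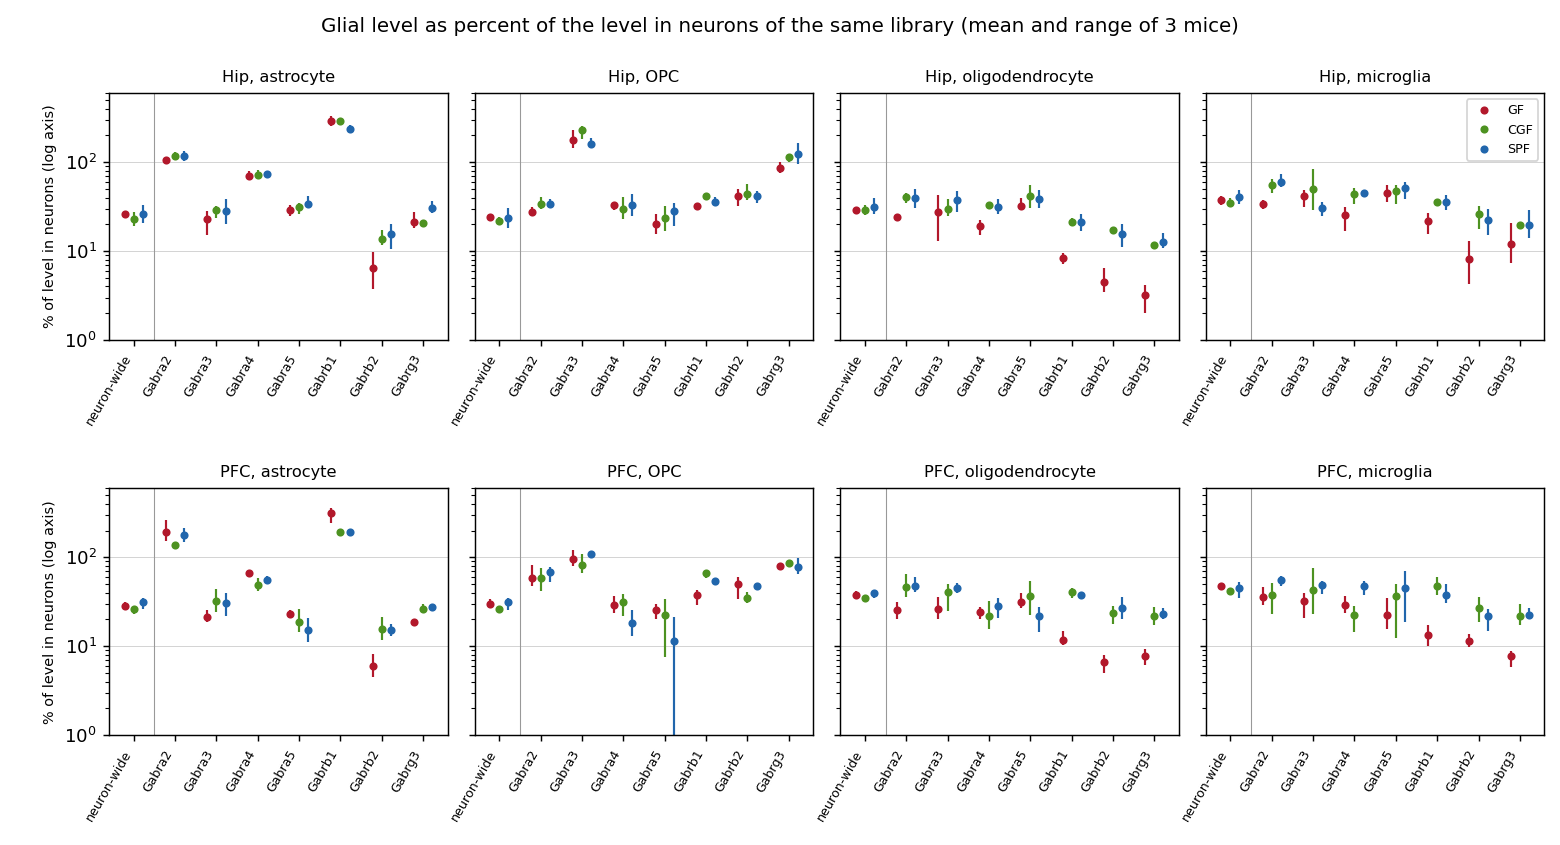
Glial level as percent of the level in neurons of the same library (log axis), for the mean of the 8 neuron-wide genes (left of the line) and each member, in 4 glial types of Hip (top) and PFC (bottom). Points are means of 3 mice and lines their range, and the line for Gabra5 in PFC OPC of SPF mice runs to 0, off the axis. Gabrb1 and Gabra2 in astrocytes and Gabra3 and Gabrg3 in OPC lie above the neuron-wide share, and Gabrb2 and Gabrg3 in oligodendrocytes and microglia lie below it.

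The first comparison asked which genes differed between mice without and with a gut flora. In the Hip of GF mice, all members were lower than in SPF mice in several types. Of 75 pairs of a member and a cell type that passed the count filter (77 in all, the others being Gabra3 in microglia and endothelial cells), 47 were called at an edgeR adjusted p under 0.05, and all 47 were lower in GF. Over all genes tested in these types, 32.6% were called, 17.7% higher and 15.0% lower. The members' median log2 fold change was -0.54 (range -2.29 to 0.19), and the median over all genes of a type lay between -0.0729 and 0.0296. The log2 fold changes come from edgeR's scaled fit and can differ from a plain ratio of CPM.

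By gene, calls below SPF in Hip came in 9 of 11 types for Gabra2, 8 of 11 each for Gabrb1 and Gabrb2, 7 of 11 each for Gabra4 and Gabrg3, 4 of 9 for Gabra3 and 4 of 11 for Gabra5. CA1 and dentate granule neurons had all 7 members called lower, where 22.3% and 22.9% of their genes were. Pvalb interneurons had 6 (13.3% of genes lower), CA3 neurons 5 (18.9%), Sst interneurons 2 (12.1%) and Vip interneurons 2 (5.39%). Endothelial cells had 0 of 6 by edgeR, with 0.838% of genes lower. The rest of the 47 calls were in astrocytes, OPC, oligodendrocytes and microglia. Of the called pairs there that could still be tested with the neuron-wide share subtracted, 7 kept their call and 2 lost it. A correction that took out how counts in a library varied with gene length and with GC left 18 calls, 17 lower and 1 higher (Gabrb1 in astrocytes, 0.55, adjusted p = 0.021, named after its value was seen), in place of 47 lower. By gene this left 4 lower for Gabra2, 3 for Gabra4, and 2 each for Gabra5 and Gabrg3. In 17 of the 47 pairs the call held under each alternative in which the pair was still tested.

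Gabra2 in CA3 neurons was at 369, 372 and 395 CPM in the 3 GF mice and 552, 558 and 619 in the 3 SPF mice, with 572, 622 and 667 in CGF mice. The GF values all lay below those of both other groups, which overlapped each other. The log2 fold change of GF vs. SPF was -0.76 ± 0.099 (SE), edgeR adjusted p = 0.000152. In CA1 neurons Gabra2 was at 467, 511 and 545 CPM in GF and 608, 625 and 680.4 in SPF mice, and in dentate granule neurons at 471, 523 and 546 and 636, 639 and 680.3. These groups did not overlap either, with -0.50 ± 0.088 (SE), edgeR adjusted p = 0.000669, and -0.46 ± 0.075 (SE), edgeR adjusted p = 0.000494, and both calls were lost once the length and GC trend was removed.

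Gabra4 in CA1 neurons was at 92.8, 101 and 114 CPM (GF), 146, 146 and 162 (SPF) and 125, 135 and 153 (CGF), with GF below both. Its log2 fold change was -0.73 ± 0.11 (SE), edgeR adjusted p = 0.000195. In dentate granule neurons, where its CPM was highest, Gabra4 was at 224, 229.7 and 240.1 CPM in GF and 269.6, 276 and 294 in SPF mice, apart but by less (-0.40 ± 0.069 (SE), edgeR adjusted p = 0.000822).

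Gabra5 fell in the pyramidal neurons where it is highest. CA3 neurons held 173, 181 and 205 CPM (GF), 246, 253 and 285 (SPF) and 246, 262 and 301 (CGF), again with GF lowest and no overlap. The log2 fold changes were -0.65 ± 0.12 (SE), edgeR adjusted p = 0.000957, in CA3, and -0.49 ± 0.079 (SE), edgeR adjusted p = 0.000412, in CA1. In dentate granule neurons the groups of Gabra5 overlapped (144, 149 and 170.4 CPM in GF, 160.3, 172 and 178 in SPF), and the call there (-0.25 ± 0.076 (SE), edgeR adjusted p = 0.0169) was lost without GF mouse 6 or 7 or SPF mouse 31, while its sign turned when the length and GC trend was removed (0.0094).

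Gabra3 was called lower in 4 of 9 types, and in 0 by the same edgeR test once the length and GC trend was removed. In Pvalb interneurons it was at 60.7, 63.8 and 64.2 CPM in GF and 86.1, 88.9 and 99.2 in SPF mice (-0.64 ± 0.14 (SE), edgeR adjusted p = 0.00258), and in Sst interneurons at 78.0, 80.5 and 84.5 and 87.9, 117 and 119 (-0.56 ± 0.14 (SE), edgeR adjusted p = 0.0112). Neither pair of groups overlapped, and both calls were lost once the length and GC trend was removed, that in Sst also without likely doublets. The number of Sst nuclei was uneven, with 503 from GF mouse 6, 312 from SPF mouse 32 and 118 to 196 from the others.

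Both beta subunits were called lower in 8 of 11 types. With the length and GC trend removed, Gabrb2 was lower in 5, and Gabrb1 was lower in 1 and higher in 1. Dentate granule neurons held Gabrb2 at 396, 401 and 405 CPM (GF), 516, 567 and 612 (SPF) and 577, 595 and 641 (CGF). The GF values lay close together and below those of the other 6 mice, with a log2 fold change of -0.61 ± 0.075 (SE), edgeR adjusted p = 9.27e-05. CA3 neurons held 122, 126 and 169 CPM in GF and 216, 238 and 260.4 in SPF mice, also apart (-0.93 ± 0.14 (SE), edgeR adjusted p = 0.000325). For Gabrb1 the called changes ran from -1.66 in oligodendrocytes to -0.44 in dentate granule neurons. In these oligodendrocytes Gabrb1 was above the neuron-wide share in 0 of 9 libraries (median ratio 0.65). Dentate granule neurons held Gabrb1 at 1381, 1464 and 1476 CPM in GF and 1731, 1829 and 1836 in SPF mice (-0.44 ± 0.057 (SE), edgeR adjusted p = 0.000135). In astrocytes, where its CPM was highest, Gabrb1 did not differ by the test (3016, 3352 and 3646 CPM in GF, 3218, 3567 and 3961 in SPF), with -0.07 ± 0.12 (SE), edgeR adjusted p = 0.684.

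Gabrg3 in Pvalb interneurons, where its CPM was highest, was at 2493, 2682 and 2729 CPM (GF), 3592, 3613 and 3826 (SPF) and 3586, 3901 and 4199.6 (CGF). All GF values lay below all others (-0.58 ± 0.098 (SE), edgeR adjusted p = 0.000477), a call lost when the length and GC trend was removed. In OPC, the glial type in which it stood above the neuron-wide share, Gabrg3 was at 369, 409 and 529.8 CPM in GF and 634, 706 and 1013 in SPF mice (-0.92 ± 0.17 (SE), edgeR adjusted p = 0.00037), and this call held under each alternative run.

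Of the 47 calls, the 3 with the largest fold changes were in oligodendrocytes and microglia. Gabrg3 in oligodendrocytes was at 9.57, 18.4 and 21.7 CPM in GF and 66.4, 75.3 and 106 in SPF mice (-2.29 ± 0.25 (SE), edgeR adjusted p = 7.88e-06), and Gabrb2 at 11.8, 13 and 22.4 and 55.0, 67.8 and 88.4 (-2.14 ± 0.24 (SE), edgeR adjusted p = 9.84e-06). In microglia Gabrb2 was at 16.0, 25.4 and 44.7 CPM in GF and 74.2, 99.5 and 128 in SPF mice (-1.80 ± 0.33 (SE), edgeR adjusted p = 0.00057). All of these are levels below the neuron-wide share. That share itself had overlapping ranges in the groups, with means in oligodendrocytes of 29.2% (GF), 31.6% (SPF) and 29.2% (CGF). With the neuron-wide share subtracted, 15 glial pairs of Hip could still be tested and 7 were lower in GF, and Gabrb2 and Gabrg3 in oligodendrocytes and microglia no longer passed the count filter. Removing likely doublets (from 677 to 658 GF microglia and from 919 to 890 SPF microglia) lowered Gabrb1 in GF microglia from a mean of 252 to 111 CPM and in SPF microglia from 532 to 411.

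**Figure D3:**
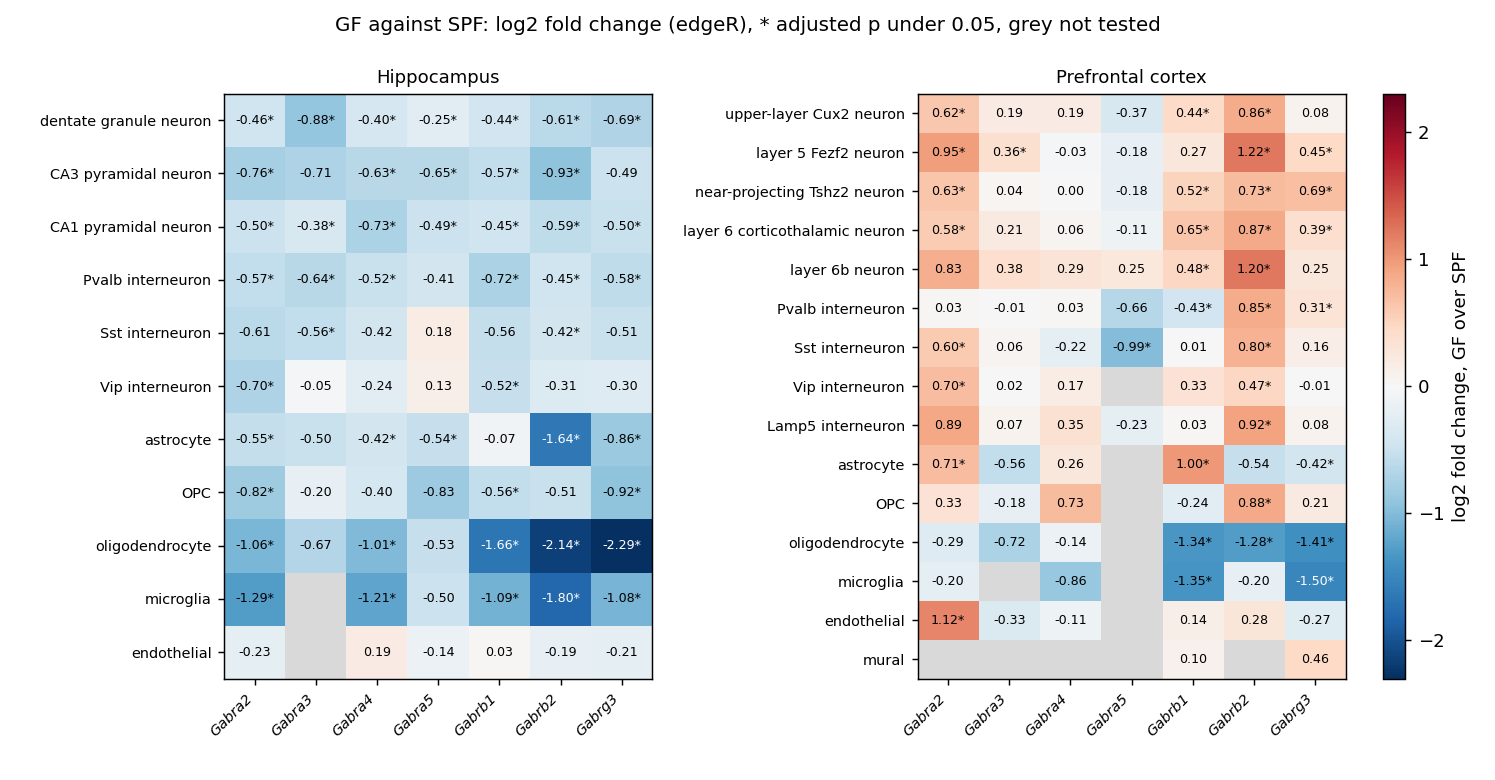
edgeR log2 fold change of GF vs. SPF for each member (columns) in each cell type (rows) of Hip (left) and PFC (right), blue for lower and red for higher in GF. Stars mark an adjusted p under 0.05, and grey cells did not pass the count filter. Hip holds 47 stars, all on blue cells, and PFC holds 28 on red and 8 on blue.

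In PFC most calls were in the other direction. Of 93 pairs tested (105 in all), 36 were called, 28 higher and 8 lower in GF, where 44.8% of all genes tested were called, 22.6% higher and 22.2% lower. The members' median log2 fold change was 0.17. In the 9 neuron types 24 of 62 pairs were higher and 2 lower (23.9% and 23.7% of genes), and in the 6 other types 4 of 31 were higher and 6 lower (19.3% and 18.8%). Without the length and GC trend the split was 16 higher and 16 lower, and 19 of the 36 calls held under each alternative in which the pair was still tested. Simulated GF vs. SPF data had 100 genes changed 1.5-fold, 100 changed 2-fold and the rest unchanged. In these data 33% of 1.5-fold and 67% of 2-fold changes were recovered in dentate granule neurons of Hip (15573 genes) and 15% and 66% in upper-layer neurons of PFC (14420 genes). The shares were 13% and 53% in microglia of Hip (8456 genes) and 9% and 59% in Vip interneurons of PFC (7335 genes). False calls made up 8.26%, 15.6%, 1.49% and 0% of the calls in these types, in the same order. A far larger share of genes was called in the real fits, so recovery and false calls there may differ. Of the pairs that did not pass the filter, 7 were of Gabra5 in OPC, Vip interneurons, astrocytes, endothelial cells, microglia, mural cells and oligodendrocytes.

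Gabrb2 was called higher in 10 of 14 types and lower in 1. Layer 5 Fezf2 neurons held 493, 539 and 541 CPM (GF), 255, 262 and 276 (SPF) and 231, 269 and 327 (CGF). GF values stood well apart, and SPF values fell inside the CGF range. The log2 fold change was 1.22 ± 0.14 (SE), edgeR adjusted p = 1.73e-06. Upper-layer Cux2 neurons held 441, 442 and 449 CPM in GF and 237, 270.1 and 308 in SPF mice, likewise without overlap (0.86 ± 0.13 (SE), edgeR adjusted p = 7.42e-05).

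The same gene was higher in layer 6b (1.2 ± 0.17 (SE), edgeR adjusted p = 6.08e-06), layer 6 corticothalamic (0.87 ± 0.13 (SE), edgeR adjusted p = 3.24e-05) and near-projecting neurons (0.73 ± 0.15 (SE), edgeR adjusted p = 0.000215). Pvalb interneurons held 506, 523 and 546 CPM (GF), 299.9, 311 and 328 (SPF) and 238, 327 and 339.6 (CGF), with no overlap of GF and the rest (0.85 ± 0.13 (SE), edgeR adjusted p = 6.54e-06). Sst interneurons showed 188, 195 and 208 CPM in GF and 113, 113 and 139.5 in SPF mice (0.80 ± 0.13 (SE), edgeR adjusted p = 1.98e-05). In Lamp5 interneurons the call (0.92 ± 0.29 (SE), edgeR adjusted p = 0.0264) was lost without any one of GF mice 6 and 7 and SPF mice 30, 31 and 32. With the length and GC trend removed Gabrb2 was still higher in 8 types and lower in 1.

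**Figure D4:**
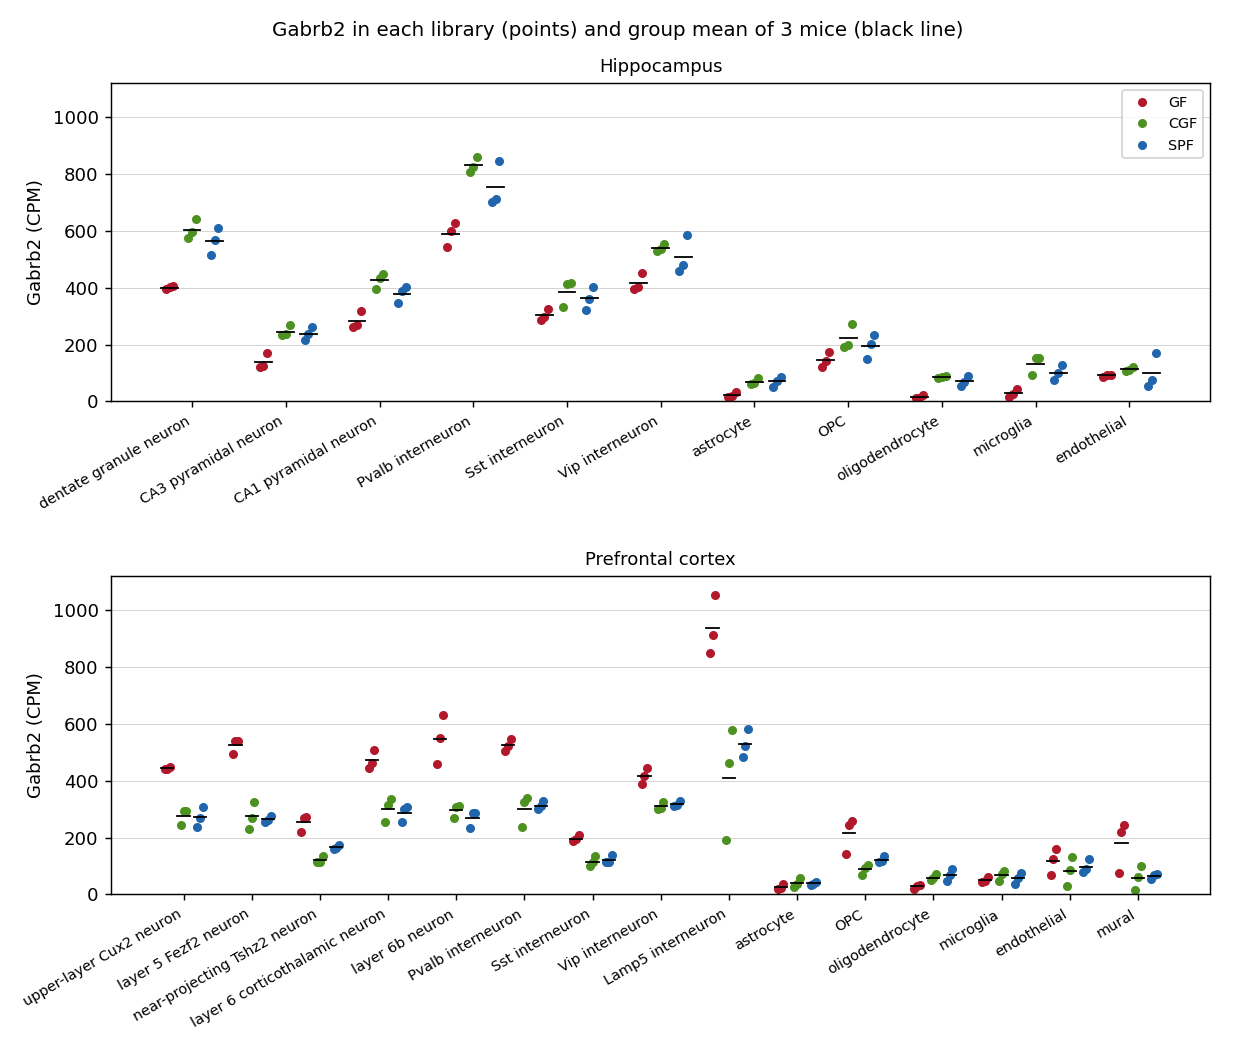
Gabrb2 level (CPM) in every library (points; GF red, CGF green, SPF blue) with the mean of 3 mice (black line), by cell type in Hip (top) and PFC (bottom). GF points lie below the others in dentate granule and CA3 neurons of Hip, and above the others in layer 5, layer 6b, upper-layer and Pvalb types of PFC.

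Gabra2 was called higher in 8 of 14 types of PFC, and in 5 with the length and GC trend removed. Layer 5 neurons held 244, 261 and 278 CPM (GF), 143, 155 and 175 (SPF) and 166, 167 and 180.3 (CGF), with GF above all (0.95 ± 0.12 (SE), edgeR adjusted p = 4.82e-06). Upper-layer neurons held 276, 322 and 334 in GF and 207, 233 and 236 in SPF mice (0.62 ± 0.11 (SE), edgeR adjusted p = 0.000312). Astrocytes held 331, 389 and 502 in GF and 223, 248 and 303 in SPF mice (0.71 ± 0.16 (SE), edgeR adjusted p = 0.00112). None of these 3 groups overlapped with SPF.

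Gabrb1 was called higher in 5 of 15 types of PFC and lower in 3, and with the length and GC trend removed it was higher in 2 and lower in 5. It was higher in PFC astrocytes, with 2511, 3015 and 3138 CPM (GF), 1449, 1472 and 1553 (SPF) and 1502, 1548 and 1815 (CGF). The lowest GF mouse lay above the highest of the other 6 (1.0 ± 0.15 (SE), edgeR adjusted p = 6.42e-06). The astrocytes of PFC came from different clusters by group, cluster 14 with 93.6% GF nuclei and cluster 5 with 1.84%, and the same was so for microglia (cluster 23 with 95.7% GF nuclei and cluster 22 with 1.59%). Layer 6 corticothalamic neurons also had more Gabrb1 (0.65 ± 0.14 (SE), edgeR adjusted p = 0.00104), at 1159, 1387 and 1446 CPM in GF and 867, 979.8 and 1005 in SPF mice. Pvalb interneurons went the other way, at 270.1, 301 and 323 and 384, 427 and 489.7 (-0.43 ± 0.14 (SE), edgeR adjusted p = 0.0134), a call lost without GF mouse 6, without SPF mouse 30 and with coarser clusters.

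Gabrg3 was called higher in 4 types of PFC and lower in 3, and with the length and GC trend removed it was higher in 1 and lower in 3 of 15. Near-projecting neurons held 1935, 2265 and 2397 CPM in GF and 1364, 1526 and 1579 in SPF mice, without overlap (0.69 ± 0.14 (SE), edgeR adjusted p = 0.000235), and this call held under each alternative run. In Pvalb interneurons the change was small (0.31 ± 0.12 (SE), edgeR adjusted p = 0.0394) and was lost when any of the 6 compared libraries was left out.

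Gabra4 had no edgeR call in 14 types of PFC, and 3 lower once the length and GC trend was removed (log2 fold changes before that from -0.86 in microglia to 0.73 in OPC). Gabra3 had 1 (0 with that trend removed), in layer 5 neurons (0.36 ± 0.13 (SE), edgeR adjusted p = 0.0269), lost without any one of GF mice 6 and 7 and SPF mice 30 and 31. Gabra5 also had 1 of 8 (4 lower with the length and GC trend removed), lower in Sst interneurons (9.34, 10.0 and 10.3 CPM in GF, 16.8, 23.1 and 23.7 in SPF), with -0.99 ± 0.31 (SE), edgeR adjusted p = 0.00944, lost without SPF mouse 32 and without likely doublets. Its levels in layer 6b neurons, where its CPM in PFC was highest, were 147, 172 and 187 CPM in GF and 143, 144 and 186 in SPF mice.

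In oligodendrocytes of PFC, Gabrb1 (-1.34 ± 0.19 (SE), edgeR adjusted p = 8.17e-07), Gabrb2 (-1.28 ± 0.31 (SE), edgeR adjusted p = 0.00122) and Gabrg3 (-1.41 ± 0.22 (SE), edgeR adjusted p = 3.09e-06) were lower in GF, as in Hip. Microglia of PFC had Gabrb1 at 104, 104 and 157 CPM in GF and 240.0, 265 and 354 in SPF mice (-1.35 ± 0.23 (SE), edgeR adjusted p = 7.76e-06). Gabrb1 was above the neuron-wide share in 3 of 9 libraries in these oligodendrocytes and in 2 of 9 in these microglia. With the neuron-wide share subtracted, 9 glial pairs of PFC could still be tested, of which 2 were higher and 0 lower in GF by edgeR.

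The second question was whether colonization brought a difference from SPF mice. CGF and SPF mice had no member called by edgeR in either region, of 75 pairs in Hip and 93 in PFC, against 0.469% and 0.171% of all genes. DESeq2 gave 0 in both as well. At an unadjusted p under 0.05 there were 11 pairs in Hip and 6 in PFC, where 10.3% and 8.9% of all genes reached it, and the smallest adjusted p of a member was 0.162 in Hip and 0.413 in PFC. For Gabrb2 the difference was 0.16 ± 0.074 (SE) in dentate granule neurons and 0.07 ± 0.15 in layer 5 neurons on the log2 scale.

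GF vs. CGF shares its GF libraries with GF vs. SPF and is no independent comparison. In Hip 50 of 75 pairs were called, all lower in GF, against 34.3% of all genes (16.0% lower). In PFC 28 of 93 were higher and 7 lower, against 44.3% of all genes (22.4% higher, 21.9% lower). With the length and GC trend removed, 21 pairs of Hip were lower and 0 higher, and in PFC 17 were higher and 10 lower. Gabrb2 was lower in 10 of 11 types of Hip, and in PFC it was higher in 10 of 14 and lower in 1. Its log2 fold change was -0.78 ± 0.075 (SE), edgeR adjusted p = 2.08e-05, in dentate granule neurons and 1.15 ± 0.14 (SE), edgeR adjusted p = 3.55e-06, in layer 5 neurons. Gabra4 was higher in GF than in CGF in 2 types of PFC, and Gabra5 had no call among its 8.

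The third comparison set Hip against PFC of the same mice in the 7 types found in both, 49 pairs. In SPF mice 26 pairs were higher in Hip and 4 lower, against 36.8% of all genes (18.8% higher). In CGF mice it was 34 and 4, against 37.6%, and in GF mice 9 and 5, against 4.13%. Removing the length and GC trend changed the split to 15 higher and 9 lower in SPF mice and to 18 and 7 in CGF mice. The 14 calls of GF mice became 7 without mouse 5 and 8 without mouse 6, and the 38 of CGF mice 24 without mouse 17 and 25 without mouse 19. PFC libraries of SPF and CGF mice were the shallower ones, which cannot be told apart from the region in those groups.

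Gabra2, Gabra5 and Gabrb2 had calls above PFC, and none below, in each group. Gabra2 in Pvalb interneurons of SPF mice was at 116, 123 and 126 CPM in Hip and 36.2, 38.8 and 58.4 in PFC, with the regions far apart (1.68 ± 0.22 (SE), edgeR adjusted p = 5.32e-07). In GF mice the same difference was 1.08 ± 0.20 (SE), edgeR adjusted p = 0.000601 and in CGF mice 1.58 ± 0.21 (SE), edgeR adjusted p = 6.61e-07. Microglia of the SPF libraries held more Gabra2 than these Pvalb interneurons, 276, 302 and 384 CPM in Hip and 66.4, 88.3 and 91.4 in PFC. How much of the Pvalb level came from other cells was not tested. Gabra2 was called higher in Hip in 7 of 7 types in SPF and CGF mice and in 3 of 7 in GF mice. Gabra5 in astrocytes was higher in Hip by 1.75 (GF mice), 2.41 (SPF mice) and 2.13 (CGF mice). Its median ratio to the neuron-wide share there was 1.28 in Hip and 0.79 in PFC, above 1 in 8 of 9 and 0 of 9 libraries. In Sst interneurons Gabra5 was at 39.6, 45.7 and 48.1 CPM in Hip and 9.34, 10.0 and 10.3 in PFC of GF mice (2.09 ± 0.25 (SE), edgeR adjusted p = 1.37e-05). Microglia of the same mice held 43.1, 56.1 and 70.6 CPM of Gabra5 in Hip and 6.62, 7.79 and 16.1 in PFC.

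Gabrb2 was called higher in Hip in 1 of 7 types without flora (GF), 5 in SPF mice and 6 after colonization (CGF). In Sst interneurons of SPF mice it was at 322, 361 and 403 CPM in Hip and 113, 113 and 139.5 in PFC (1.79 ± 0.14 (SE), edgeR adjusted p = 1.68e-09). GF mice had 287, 296 and 324 in Hip and 188, 195 and 208 in PFC, still apart but closer (0.55 ± 0.13 (SE), edgeR adjusted p = 0.00991). In Pvalb interneurons the difference was 1.5 (edgeR adjusted p = 1.07e-10) in SPF and 0.21 (edgeR adjusted p = 0.448) in GF mice. The calls below PFC were all of Gabra3 and Gabrg3. Gabra3 was lower in Hip astrocytes in each group and Gabrg3 in Hip oligodendrocytes in each group. Gabra3 in astrocytes lay near the neuron-wide share (median ratio 1.0 in Hip and 0.87 in PFC), and Gabrg3 in oligodendrocytes lay below it. In OPC, where Gabrg3 stood above the neuron-wide share, Gabrg3 was lower in Hip than in PFC in GF mice (-0.84 ± 0.18 (SE), edgeR adjusted p = 0.00632) and not in SPF mice (0.24).

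**Figure D5:**
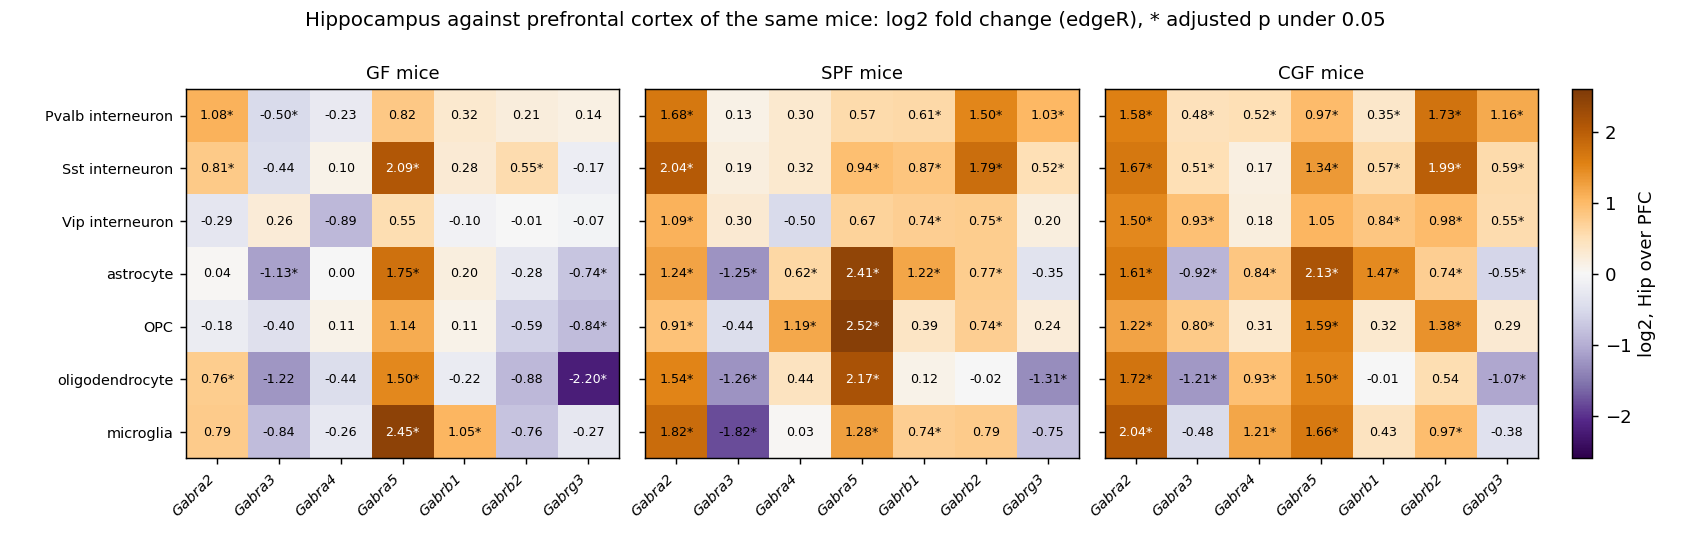
edgeR log2 fold change of Hip vs. PFC for each member (columns) in the 7 shared cell types (rows), in GF, SPF and CGF mice, orange for higher and purple for lower in Hip. Stars mark an adjusted p under 0.05 and number 14 (GF), 30 (SPF) and 38 (CGF).

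Whether GF vs. SPF itself differed between the regions was tested as an interaction. Of 49 pairs 17 passed, 1 higher and 16 lower in Hip relative to PFC, against 23.0% of all genes (12.1% lower). Gabrb2 in Pvalb interneurons had the smallest adjusted p, with a change of -0.45 in Hip and 0.85 in PFC and a difference of -1.30 ± 0.17 (SE), edgeR adjusted p = 1.13e-06. Gabrb1 in astrocytes (-1.02 ± 0.19 (SE), edgeR adjusted p = 0.000302) and Gabra2 in astrocytes (-1.2 ± 0.22 (SE), edgeR adjusted p = 0.000193) and Vip interneurons (-1.39 ± 0.27 (SE), edgeR adjusted p = 0.000221) also differed. The pair in the other direction was Gabra5 in Sst interneurons (1.15 ± 0.37 (SE), edgeR adjusted p = 0.0199), lost without SPF mouse 30, without GF mouse 5, without likely doublets and with thinned sums. With the length and GC trend removed 6 pairs passed.

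Other genes of GABA signalling were read by fixed lists for GF vs. SPF. Of 12 other GABA-A subunit genes, 6 were tested in Hip, with 3 pairs higher and 24 lower of 49 (median log2 fold change -0.41), where 17.7% of all genes were called higher and 15.0% lower. In PFC 5 were tested, with 29 pairs higher and 2 lower of 57 (median 0.47), where 22.6% of all genes were higher and 22.2% lower. Gabrd, the delta subunit of extrasynaptic receptors, was higher in 2 of 6 types of Hip, and in 10 of PFC it was higher in 1 and lower in 2. After removal of the length and GC trend the calls of this list were 11 in Hip and 16 in PFC.

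Of the postsynaptic partners, 15 of 96 pairs were higher and 29 lower in Hip, and in PFC 8 of 117 were higher and 41 lower. With the length and GC trend removed, the 44 calls in Hip became 25 and the 49 in PFC 44. Of all genes 32.6% were called in Hip and 44.8% in PFC. Gphn, which makes the gephyrin scaffold under the receptor, was lower in 10 of 11 types of Hip and in 15 of 15 of PFC, where its median log2 fold change was -1.15. Slitrk3, a synaptic adhesion protein, was lower in 10 of 11 types of PFC (upper-layer neurons -1.83, edgeR adjusted p = 3.57e-08). Gabarap, a protein of receptor trafficking, was higher in 10 of 11 types of Hip and 7 of 14 of PFC. In CGF vs. SPF this list had the one call of all the lists, Gphn in near-projecting neurons (0.71, edgeR adjusted p = 0.0225).

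Genes of GABA synthesis and transport had 5 pairs higher and 10 lower of 76 in Hip and 20 higher and 6 lower of 74 in PFC, beside the 32.6% and 44.8% of all genes called, the shares to set beside the next 2 sets as well. Slc32a1, the vesicular GABA transporter, was higher in 7 of 7 types of PFC (Pvalb interneurons 1.60, edgeR adjusted p = 8.19e-08). In Hip it was higher in Pvalb (1.81, edgeR adjusted p = 2.58e-05) and Sst interneurons (1.82, edgeR adjusted p = 0.000271). It was not called in Hip Vip interneurons (0.77, edgeR adjusted p = 0.0907) or in the other Hip types tested. The GABA-B receptor genes had 4 higher and 6 lower of 22 in Hip and 4 and 3 of 30 in PFC, the higher calls all from Gabbr1 and the lower ones from Gabbr2. With the length and GC trend removed the GABA-B calls were 3 in Hip and 11 in PFC. Of the chloride transporters that set the driving force of the channel, Slc12a5 was higher and Slc12a2 lower in 5 of 11 types each in Hip. In PFC Slc12a2 was higher in 5 of 15 types, and Slc12a5 was higher in 1 and lower in 2 of 14.

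The genes whose levels over the 26 type means most resembled each member were named as a description, by Pearson's r of log2(CPM + 1) over 8031 genes. They were Pkp2 (0.85) and Abl2 (0.82) for Gabra2, Zmat3 (0.89) and Igsf9b (0.89) for Gabra3, Dab1 (0.81) for Gabra4, and Plppr4 (0.81) and Epha7 (0.80) for Gabra5. For Gabrb1 they were Sybu and Trim9 (0.87 each), for Gabrb2 Fam78b (0.91) and Slc4a10 (0.90), and for Gabrg3 Gm26691 (0.94) and Pknox2 (0.91). Among the members, Gabra3 was most like Gabrg3 (0.84), and Gabrb2 was most like Gabrg3 as well (0.69). The points share libraries and depth, so no test was made.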

How the data were processed

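Nuclei of Hip and PFC of 9 mice were sequenced on the 10x Genomics platform. Per the labels, reads were handled with CASAVA 1.8 and Cell Ranger on mm10. The matrix headers and the study's methods name a later Cell Ranger version and kit than the series' design text does, so the chemistry is uncertain. The deposited counts are raw UMI counts per gene and barcode that the authors deposited without normalization, and whether intronic reads were counted is not given in the sources used here.

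From these counts, nuclei had to show at least 200 genes and no more than 10% mitochondrial UMIs. Then 2000 variable genes other than GABA-A subunit genes, scaled within each library, gave 30 components. The libraries were aligned in these components through soft clusters that penalised uneven library shares. Leiden clusters (20 neighbours, resolution 2) of the aligned nuclei were named by marker lists. The marker folds used a pseudocount of 35 CPM chosen after seeing the data, on which the naming of Hip microglia depends. Likely doublets (0.8% per 1000 nuclei, 4.57 to 7.25% of a library) stayed in the sums. UMIs were summed per library and type and tested with edgeR 4.0.16 (filterByExpr, TMM, glmQLFit, glmQLFTest) in 1 fit per type over all genes, p-values being adjusted by Benjamini-Hochberg within a type and called under 0.05. The mouse was the replicate. DESeq2 1.42.0, other scaling and filters, thinning, a length and GC offset (99.55% of genes had values), coarser clusters, subtraction of the neuronal signal from glial sums and leaving out each mouse were alternatives. Each mouse number marks 1 animal in both regions, and over 63 comparisons of a type and a mouse the correlation of deviations had a median of 0.122 (39 over 0.1, 0 under -0.1). The tests were tried on simulated data. The named genes were the 7 members, fixed lists of other GABA genes, and the 2 genes most like each member. Some genes of these sets are not reported here. Members and lists were chosen with earlier results of these data known. Python 3.11.15, numpy 2.4.6, scipy 1.17.1, scikit-learn 1.9.0, leidenalg 0.10.2 and R 4.3.3 were used.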

Additional observations from a re-analysis of the deposited data

Results flagged for a closer look

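In 17 pairs of a gene and a cell type, the change of GF vs. SPF differed between Hip and PFC by edgeR's interaction test (adjusted p under 0.05), and the differences below are log2 fold change in Hip minus that in PFC. For Gabra2 they were -1.09 in OPC, -1.24 in Sst interneurons, -1.39 in Vip interneurons and -1.2 in astrocytes. Gabra3 gave -0.63 in Pvalb and -0.63 in Sst interneurons, and Gabra4 gave -0.53 in Pvalb interneurons. Gabra5 in Sst interneurons was the exception in sign, with 1.15. Gabrb1 gave -0.83 in Vip interneurons and -1.02 in astrocytes. Gabrb2 gave -1.34 in OPC, -1.30 in Pvalb, -1.24 in Sst and -0.76 in Vip interneurons and -1.55 in microglia, and Gabrg3 gave -1.08 in OPC and -0.89 in Pvalb interneurons. PFC libraries of SPF mice were shallower than those of GF mice while Hip libraries were not. With each sum thinned to the lowest mean UMIs per nucleus of its type, 46 of the 49 pairs could be tested, and 12 of these 17 kept their call. Thinning keeps each gene's expected share of UMIs, so whether depth made these differences was not tested.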

How the results depend on the processing

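Counts of called pairs stayed within 1.5 times of the reported ones under DESeq2, RLE factors, no filter, fits of only the 6 libraries compared, doublet removal, thinning and coarser clusters, except where named here. Removing the length and GC trend left 18 calls for GF vs. SPF in Hip, 21 for GF vs. CGF in Hip, 25 for Hip vs. PFC in CGF mice and 6 for the interaction. It moved the calls of the other subunit genes to 11 in Hip and 16 in PFC and those of the partners in Hip to 25. CGF vs. SPF gained 1 call in Hip with the neuronal signal of glia subtracted (Gabrb1 in OPC, 0.89) and 1 in PFC with no filter (Gabra2 in Lamp5 interneurons, 1.25), both named after their values were seen. In Lamp5 interneurons CGF mouse 17 was at 293 CPM for Gabra2, against 91.2 and 73.7 in CGF mice 18 and 19 and 67.0 to 85.6 in SPF mice, and the call without mouse 17 was not computed.

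Leaving out 1 mouse of the compared groups at a time gave 43 to 45 calls for GF vs. SPF in Hip and 28 to 33 in PFC, 46 to 48 for GF vs. CGF in Hip and 29 to 41 in PFC, and 0 to 0 for CGF vs. SPF in both. For Hip vs. PFC, leaving out any of the 9 mice gave 24 to 38 in CGF mice (24 without mouse 17, 25 without mouse 19), 7 to 15 in GF mice (7 without mouse 5, 8 without mouse 6) and 22 to 32 in SPF mice, for the interaction 12 to 18, and for neighbouring types 17 to 26 in Hip and 0 to 18 in PFC, where it was 0 without any one of GF mice 5, 6 and 7, SPF mice 30, 31 and 32 and CGF mouse 18.

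Signs turned when the length and GC trend was removed for GF vs. SPF in Gabrb1 in CA1 (0.0005) and Gabra5 in dentate granule neurons (0.0094), and for GF vs. CGF in Hip in astrocytes for Gabrb1 (0.278) and Gabrg3 (0.302) and in CA1 for Gabra3 (0.0548) and Gabrb1 (0.0425). For Hip vs. PFC in SPF mice they turned for Gabrb1 in Pvalb (-0.154) and Gabrg3 in Sst (-0.234), and in CGF mice for Gabra3 in Pvalb (-0.137) and Sst (-0.0956), Gabrb1 in Pvalb (-0.489) and Sst (-0.232), and Gabrg3 in Sst (-0.222) and Vip interneurons (-0.0678). Without doublets Gabrb1 in microglia turned for Hip vs. PFC in GF mice (-0.0816). The cause was not tested. The mouse as a replicate block gave 18, 34 and 38 calls for Hip vs. PFC in GF, SPF and CGF mice and 23 for the interaction, and lost no call. The count filter left 75 of 77 pairs tested in Hip and 93 of 105 in PFC.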
